A study of Mus musculus with 1279 samples.

Results

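The genes described here are 9 that encode the collagen VI chains Col6a1, Col6a2, Col6a3, Col6a5 and Col6a6, the network collagen chain Col8a1 and the fibril-associated collagens Col12a1, Col14a1 and Col16a1. They were chosen by name as rows of the read count table of the mouse heart, in which they are 9 of 46517 genes, and they were followed over the cluster and strain given in the cell labels. The study isolated single mesenchymal cells from hearts of male mice aged 10 to 20 weeks, excluded cells with the endothelial antigen CD31, and sequenced 1279 of them with Smart-seq2, a plate-based method that reads along the whole transcript and carries no molecular identifiers. Its text places clusters 1 to 5 (926 cells) among fibroblasts and describes cluster 1 as likely valve interstitial cells. Clusters 6 to 8 (353 cells) were taken here as mural cells, the cells that wrap vessels, with cluster 6 as smooth muscle of large vessels, cluster 7 as vascular smooth muscle and cluster 8 as pericytes. The 4 groups of mice were C57BL6, without a reporter and sorted with antibodies against the receptors PDGFRα and PDGFRβ (45.4% of the cells), and the reporter strains Acta2GFP (13.4%), Cspg4dsRED (12.7%) and PdgfrbGFP (28.5%), in which Acta2, Cspg4 or Pdgfrb sequences drive the fluorescent protein and which had been backcrossed to C57Bl6/J. Elastase was added when Acta2GFP hearts were dissociated. No treatment was given.

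Collagen VI is assembled inside the cell from one chain each of Col6a1, Col6a2 and a longer partner, usually Col6a3, and is secreted as beaded microfibrils that lie close to cell surfaces and basement membranes. Col6a5 and Col6a6 encode chains that resemble Col6a3 and can take its place. Collagen VIII forms a hexagonal network and is known from vessel walls and remodelling tissue, whereas collagens XII, XIV and XVI are interrupted triple helices that attach to other collagen fibrils.

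Levels are given in CPM, counts scaled to a common library total, from the summed counts of all cells of 1 cluster and 1 strain, and the strain was the replicate. A sum was used where it held at least 3 cells, which left 27 sums, and clusters 3, 6 and 7 then had 3 strains and cluster 5 had 2. Each reporter strain was 1 plate, so strain, sort, dissociation and plate cannot be told apart. The clusters had been made by the authors from these same counts, so a difference between clusters is partly built into them, also for these genes. The median cell had 274504 counts (46268 to 1302397), and Acta2GFP cells had the most detected genes with a median of 6388 against 3358 to 4265 in the other strains. The 5 fibroblast markers Pdgfra, Dcn, Lum, Col1a1 and Gsn summed to 17838 to 23263 CPM in clusters 1 to 5, on average over strains, and to 7960, 2095 and 2920 CPM in clusters 6, 7 and 8. The mural markers Rgs5, Notch3, Mcam, Cspg4 and Des summed to 1693, 7523 and 9440 CPM in clusters 6, 7 and 8, and the smooth muscle markers Acta2, Myh11, Tagln and Cnn1 to 11450, 12725 and 1510 CPM, so cluster 6 was low in the former and near cluster 7 in the latter. The 3 C57BL6 cells of cluster 6 stood apart, with 16801 CPM of these fibroblast markers beside 11019 CPM of smooth muscle markers. Endothelial markers averaged at most 140.7 CPM in any cluster.

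The chains Col6a1 and Col6a2 were the most abundant of these genes per kilobase of transcript in every fibroblast cluster, and cluster 7 had the lowest mean of 7 of the 9. Per kilobase of the principal transcript, the mean level in cluster 2 was 355 CPM for Col6a1, 409 CPM for Col6a2, 91.5 CPM for Col8a1, 69.3 CPM for Col6a3, 23.4 CPM for Col14a1, 12.4 CPM for Col16a1, 8.52 CPM for Col6a6 and 0.776 CPM for Col12a1. In cluster 1 the same measure was 12.2 CPM for Col12a1. Of all counts of each gene, fibroblasts held 88.9% for Col6a1, 90.7% for Col6a2, 94.7% for Col6a3, 98.8% for Col6a6, 96.8% for Col8a1, 97.4% for Col12a1, 88.2% for Col14a1, 82.6% for Col16a1 and 17.6% for Col6a5, beside 77.8% of the counts of all genes.

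**Figure D1:**
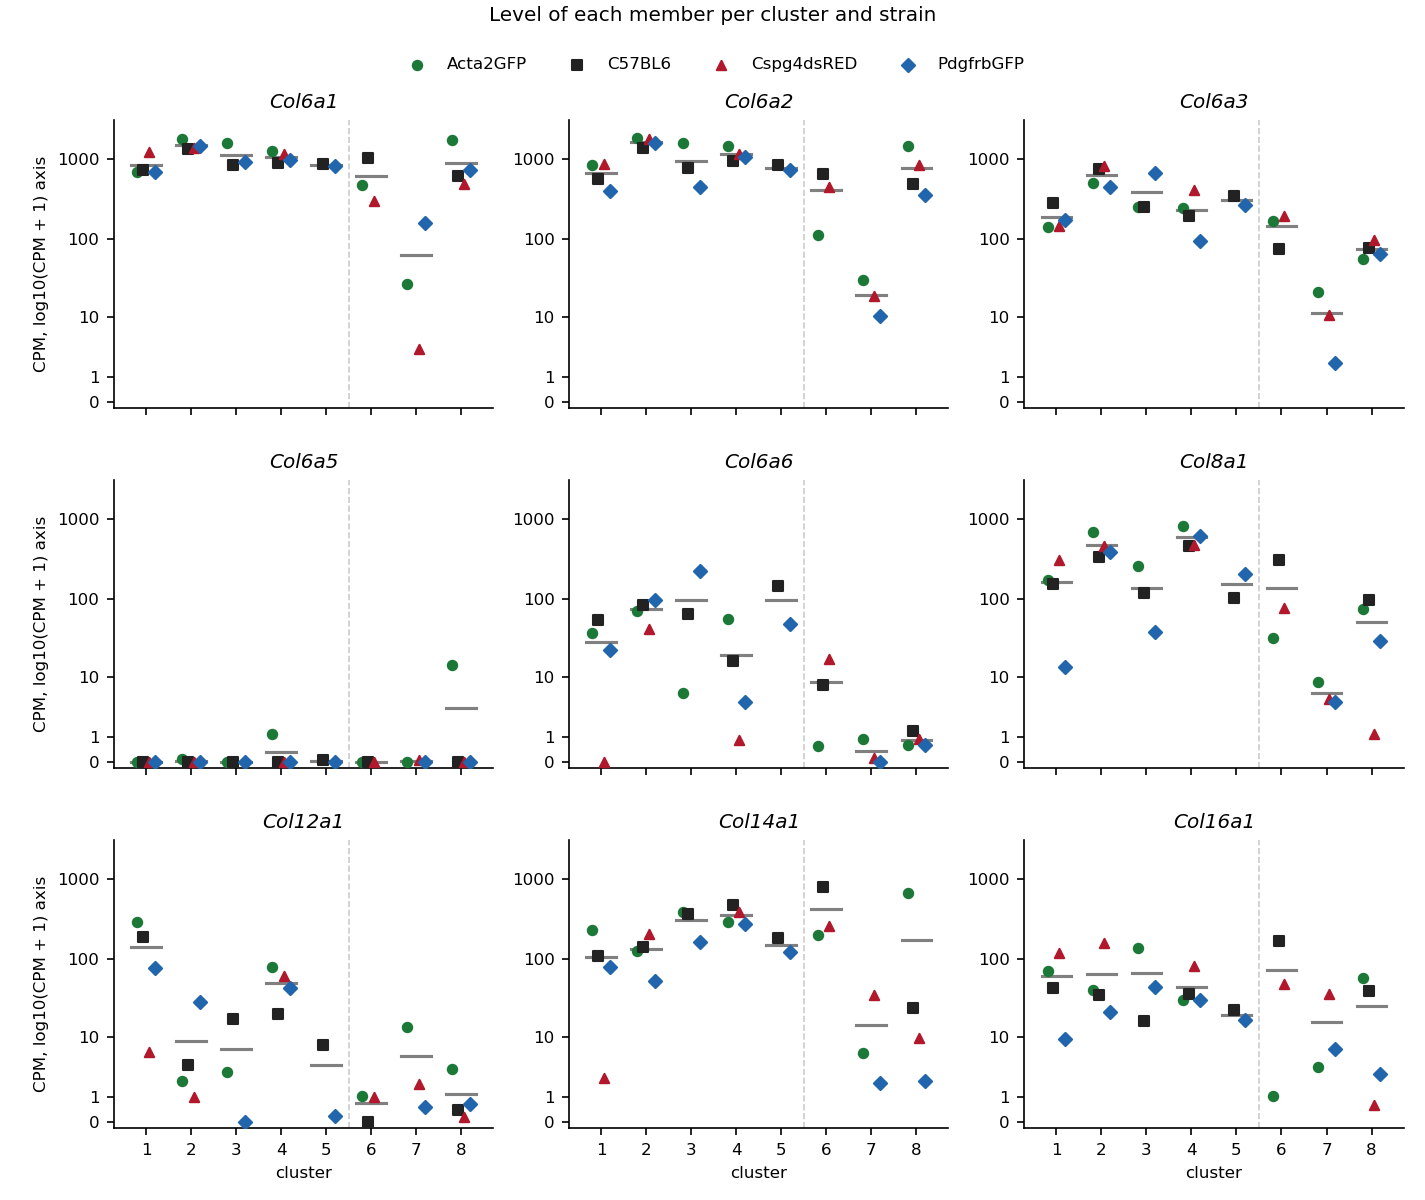
Level of each gene in CPM (log10(CPM + 1) axis) for clusters 1 to 8, with 1 point for each strain that had at least 3 cells in the cluster and a bar at the mean over strains. Cluster 7 lies lowest for Col6a1 and Col6a2, with means of 63.6 and 19.9 CPM, and Col12a1 is highest in cluster 1, where the strains spread from 6.17 to 288.2 CPM.

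Cluster 2 had the highest mean and cluster 7 the lowest for each of the 3 main collagen VI chains, while cluster 8 stood 4th for Col6a1 and Col6a2 and 7th for Col6a3. Col6a1 averaged 1457 ± 196.1 CPM (SD, n = 4 strains) in cluster 2, 1096 ± 387 (n = 3) in cluster 3, 1049 ± 157.3 (n = 4) in cluster 4, 877 ± 551 (n = 4) in cluster 8, 841 ± 40.2 (n = 2) in cluster 5, 824 ± 258.4 (n = 4) in cluster 1, 602 ± 378 (n = 3) in cluster 6 and 63.6 ± 84.3 (n = 3) in cluster 7. Along that order each cluster overlapped the next over strains, except cluster 6 and cluster 7. Col6a2 ran from 1616 ± 221.2 CPM in cluster 2 through 1134 ± 206.6 in cluster 4, 922 ± 566 in cluster 3, 775 ± 489 in cluster 8, 773 ± 74.1 in cluster 5, 661 ± 219.04 in cluster 1 and 404 ± 271.7 in cluster 6 to 19.9 ± 10.1 in cluster 7. Again the only neighbours without overlap were clusters 6 and 7. Col6a3 had its highest mean, 624 ± 178.2 CPM, in cluster 2 and its lowest in cluster 8 (74.8 ± 18.5) and cluster 7 (11.4 ± 9.83), and these last 2 were the only neighbours in its order that did not overlap.

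Fibroblasts were compared with mural cells, the main division of the study. Of the 8 genes that could be tested, 4 were higher in fibroblasts at an adjusted p under 0.05 in edgeR, namely Col6a2, Col6a3, Col6a6 and Col8a1, and none was lower. Over all 15117 genes tested 5.93% passed that threshold and 3.47% did so with higher levels in fibroblasts. Col6a3, the chain that completes the collagen VI trimer, stood at 307 CPM in fibroblasts of Acta2GFP, 384 in those of C57BL6, 525 in those of Cspg4dsRED and 257.7 in those of PdgfrbGFP. In the mural cells of the same strains it stood at 46.1, 76.1, 83.4 and 58.99 CPM. Every fibroblast sum lay above every mural sum, and the fitted log2 fold change was 2.45 ± 0.31 (SE, adjusted p = 0.00154 in edgeR). It was the gene whose call held in 13 of 13 alternative settings.

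Col6a2 was lower in the summed mural cells by a smaller factor. The mural sums mixed clusters in unequal shares, with cluster 7 giving 64.7% of the mural cells in Acta2GFP, 2.7% in C57BL6, 54.7% in Cspg4dsRED and 7.0% in PdgfrbGFP. By cluster, the mean of Col6a2 in cluster 8 (775 CPM) was not below those of fibroblast clusters 5 and 1 (773 and 661 CPM), whereas cluster 7 was at 19.9 CPM, and Col6a1 showed the same order. Fibroblasts held 1431 CPM in Acta2GFP, 957 in C57BL6, 1320 in Cspg4dsRED and 942 in PdgfrbGFP, against 500, 488, 301 and 317 CPM in mural cells. No strains overlapped, and the log2 fold change was 1.51 ± 0.27 (SE, adjusted p = 0.00888 in edgeR). Its partner Col6a1 had, in the same order of strains, 1312, 967, 1212 and 970 CPM in the fibroblasts and 612, 649, 185.04 and 658 CPM in the mural cells. The strains of Col6a1 did not overlap either, but with a log2 fold change of 1.05 (SE 0.39) its edgeR adjusted p was 0.175.

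Col6a6, the alternative long chain, was a gene of low and uneven level that was almost restricted to fibroblasts in its counts. Its fibroblast sums were 52.01 CPM in Acta2GFP, 80.5 in C57BL6, 16.8 in Cspg4dsRED and 50.03 in PdgfrbGFP, and its mural sums 0.780, 2.09, 5.51 and 0.534 CPM. The lowest fibroblast sum and the highest mural sum both came from Cspg4dsRED and did not overlap. The log2 fold change was 4.51 ± 0.91 (SE, adjusted p = 0.0165 in edgeR), and with the strain as a block the adjusted p was 0.0633. The gene model Gm38314, of the type that awaits experimental evidence (TEC), overlaps an exon of Col6a6 on the opposite strand, and its counts in the whole table came to 0.582% of the 19917 counts of Col6a6.

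Col8a1, the network-forming chain, had fibroblast sums of 564 CPM in Acta2GFP, 260.8 in C57BL6, 445 in Cspg4dsRED and 324 in PdgfrbGFP, and mural sums of 32.9, 120.6, 26.8 and 27.1 CPM. The groups did not overlap, and the C57BL6 mural cells were highest of their group. The log2 fold change was 2.93 ± 0.54 (SE, adjusted p = 0.0107 in edgeR), and it was 3.10 without the 3 C57BL6 cells of cluster 6, of which a single cell had 1033 CPM.

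The calls of Col6a2 and Col8a1 were lost when Acta2GFP, Cspg4dsRED or PdgfrbGFP was left out, with edgeR adjusted p-values of at most 0.0590 for Col6a2 and 0.0753 for Col8a1. That of Col6a6 was lost without Acta2GFP, C57BL6 or PdgfrbGFP, with adjusted p-values of at most 0.114.

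The fibril-associated collagens did not pass in this comparison. Col12a1 had fibroblast sums of 89.1 CPM in Acta2GFP, 18.1 in C57BL6, 28.3 in Cspg4dsRED and 26.5 in PdgfrbGFP, and mural sums of 9.27, 0.348, 1.30 and 0.632 CPM. The sums did not overlap, and Acta2GFP was highest on both sides. The log2 fold change was 3.79 (SE 1.12) with an edgeR adjusted p of 0.0842, while the fit with the strain as a block gave 0.0309 and DESeq2 gave 0.00183. Col14a1 stood, in the same order of strains, at 230, 277.7, 252.7 and 146.1 CPM in fibroblasts and at 239.5, 113.9, 99.1 and 2.19 CPM in mural cells. Col14a1 was higher in fibroblasts in 3 of 4 strains, with a log2 fold change of 1.01 ± 0.85 (SE, adjusted p = 0.661 in edgeR). Col16a1 likewise was higher in 3 of 4 strains, with a fibroblast mean of 53.6 ± 39.2 CPM, a mural mean of 28.2 ± 21.5 CPM (SD, n = 4) and a log2 fold change of 0.91 ± 0.76 (SE, adjusted p = 0.655 in edgeR).

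Col6a5 was close to absent and was not tested. It had a count in 9 cells of the 1279, and 1 Acta2GFP pericyte held 97 counts of it, or 146.4 CPM. A fibroblast of cluster 4, also from Acta2GFP, held 15, and the other 7 cells held 1 count each.

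**Figure D2:**
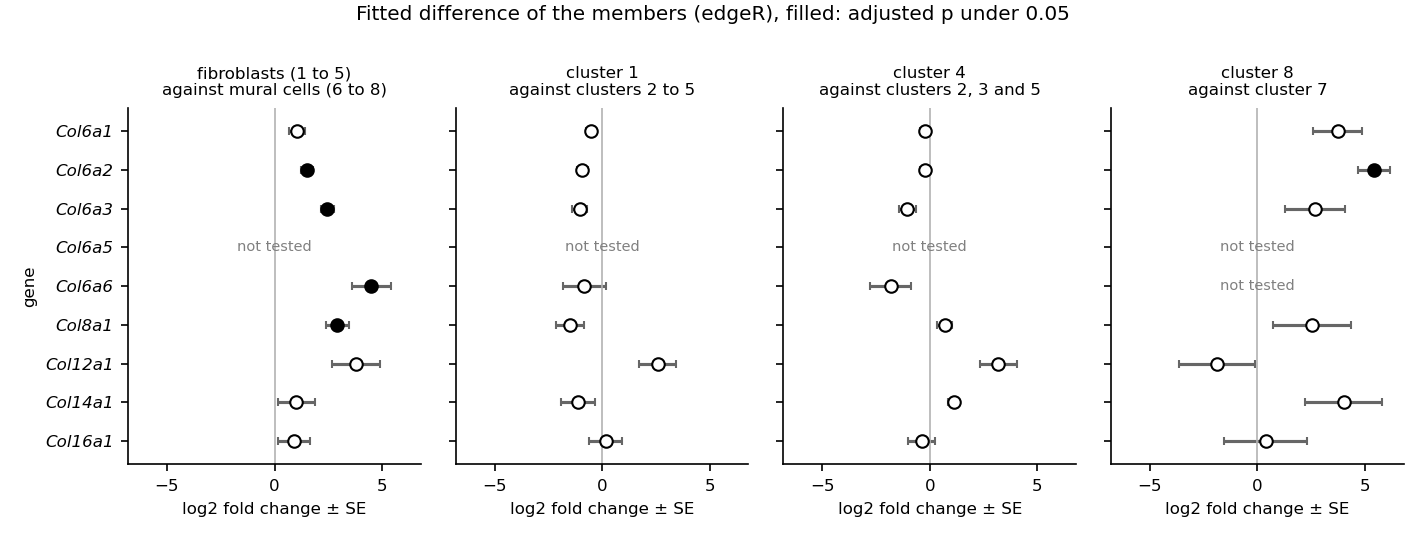
Log2 fold change with its standard error for the genes that could be tested in 4 comparisons (edgeR), where the others of the 9 are marked as not tested and filled points have an adjusted p under 0.05. Filled points appear for Col6a2, Col6a3, Col6a6 and Col8a1 in fibroblasts against mural cells and for Col6a2 in cluster 8 against cluster 7, with a log2 fold change of 5.43.

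The DNA just upstream of the 4 genes that passed is shown because they passed in the same direction in the same comparison. The stretches are 120 bases each, end at the base before the annotated start of the gene, and are written 5′ to 3′ on the gene's strand, from RefSeq on GRCm38.p6. Capitals mark GC boxes, GGGCGG or its reverse complement. They lie on the minus strand at chr10:76623631-76623750 for Col6a2, chr1:90843972-90844091 for Col6a3, chr9:105828161-105828280 for Col6a6 and chr16:57754738-57754857 for Col8a1.
Col6a2: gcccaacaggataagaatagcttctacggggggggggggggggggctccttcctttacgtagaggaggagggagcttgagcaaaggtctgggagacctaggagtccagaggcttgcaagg
Col6a3: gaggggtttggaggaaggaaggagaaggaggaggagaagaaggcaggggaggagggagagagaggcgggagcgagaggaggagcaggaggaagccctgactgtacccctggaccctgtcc
Col6a6: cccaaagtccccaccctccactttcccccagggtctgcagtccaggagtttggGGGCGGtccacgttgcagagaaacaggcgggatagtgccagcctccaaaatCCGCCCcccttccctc
Col8a1: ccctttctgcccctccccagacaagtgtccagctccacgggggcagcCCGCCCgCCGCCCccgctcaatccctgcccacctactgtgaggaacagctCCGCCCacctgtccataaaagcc
Within these stretches Col6a6 had 2 GC boxes and Col8a1 had 3, whereas Col6a2 and Col6a3 had none. The 250 bases before each RefSeq start were searched on both strands in 8 start windows of 7 of the 9 genes, and Col12a1 and Col14a1 were not in the table. GC boxes were present in 6 of the 8 windows and in 32.7% of all 32851 windows. The letters CCAAT were in 1 of 8 (33.8% of all), TATAAA in 0 of 8 (12.4%) and TGANTCA, the AP-1 motif, in 1 of 8 (6.75%), which was that of Col6a1. These matches describe letters and not bound sites.

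Pericytes were compared with vascular smooth muscle cells in the 3 strains that held both. Here Col6a2 was higher in cluster 8, the 1 gene of the 7 tested that passed, where 0.194% of 11867 genes passed in all and 0.0843% were higher in cluster 8, and where the median log2 fold change of all genes was 0.18. Its level was 822 CPM in Cspg4dsRED, 1445 in Acta2GFP and 351 in PdgfrbGFP in cluster 8, against 18.98, 30.5 and 10.3 CPM in cluster 7. Within a strain the log2 fold change of Col6a2 was between 4.96 and 5.52 on the log2(CPM + 1) scale, no strains overlapped, and the fitted log2 fold change was 5.43 ± 0.75 (SE, adjusted p = 0.0212 in edgeR). Without PdgfrbGFP, whose cluster 7 had 9 cells, the log2 fold change was 5.58 and the adjusted p was 0.119.

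Col6a1 had 485 CPM in Cspg4dsRED, 1692 in Acta2GFP and 713 in PdgfrbGFP in cluster 8, and 3.52, 27.3 and 160 CPM in cluster 7. The strains did not overlap, and the 160 CPM of PdgfrbGFP in cluster 7 came mostly from 2 of its 9 cells, with 792 and 338 CPM, while the others were at or below 26.6 CPM. The log2 fold change of Col6a1 was 3.74 ± 1.13 (SE, adjusted p = 0.301 in edgeR), and with the strain as a block it was 5.24 with an adjusted p of 0.0426. Col6a3 stood at 99.1, 56.5 and 65.3 CPM in cluster 8 and at 10.7, 21.6 and 1.96 CPM in cluster 7, without overlap, and its edgeR adjusted p was 0.816. For Col14a1, cluster 8 held 667 CPM in Acta2GFP but 9.75 in Cspg4dsRED and 2.21 in PdgfrbGFP, so that the log2 fold change of 4.01 ± 1.78 (SE, adjusted p = 0.692 in edgeR) became -1.77 without Acta2GFP. Col8a1, Col12a1 and Col16a1 overlapped between the clusters, with log2 fold changes of 2.56, -1.88 and 0.39, and Col6a5 and Col6a6 had too few counts to be tested.

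The pericyte level was made by some of the cells. In cluster 8 the median cell had 45.5 CPM of Col6a1, while the upper quartile was 1275 CPM, and 87 cells (44.4%, 95% Wilson interval 37.6 to 51.4%) had at least 100 CPM. That share was 86.7% in Acta2GFP, 66.7% in C57BL6, 51.7% in Cspg4dsRED and 31.1% in PdgfrbGFP. The 20 highest cells held 55.1% of all Col6a1 counts of the cluster. Col6a2 reached 100 CPM in 75 cells (38.3%, 31.7 to 45.2%), from 18.5% of PdgfrbGFP cells to 93.3% of Acta2GFP cells. Col6a3 did so in 19 cells (9.69%, 6.29 to 14.6%), and 20 cells held 94.7% of its counts. In cluster 7, 5 cells (4.24%) reached 100 CPM of Col6a1 and 4 (3.39%) that of Col6a2, and in cluster 2 these shares were 91.3% and 89.5%. Intervals over cells pool the strains and cover the sampling of cells only, not the spread between strains. Copies of 1 molecule cannot be told from separate molecules here.

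Acta2GFP was also highest in other measures, while the other strains kept no common order. In cluster 8 the fibroblast markers summed to 5875 CPM in Acta2GFP, 2348 in C57BL6, 1061 in Cspg4dsRED and 2397 in PdgfrbGFP. All 5 markers were above 0, and the median cell had 6896, 3538, 3610 and 2782 detected genes. In the same order of strains, the smooth muscle markers summed to 4033, 201.1, 1170 and 638 CPM in this cluster. The pericyte markers Kcnj8, Abcc9, Vtn and Rgs5 were lowest in Acta2GFP, with sums of 6942, 19787, 18865 and 23596 CPM. Over the cells of cluster 8 within 1 strain, the Spearman correlation of Col6a1 with the summed fibroblast markers was 0.057 in Acta2GFP (15 cells) and 0.418 in C57BL6 (33 cells). It was 0.015 in Cspg4dsRED (29 cells) and 0.090 in PdgfrbGFP (all but 1 of its cells). In the same order of strains, Col6a2 gave -0.356, 0.377, 0.245 and 0.072, and Col14a1 gave 0.306, -0.008, -0.087 and 0.084. On the Acta2GFP plate, Col6a1 counts of the 51 mural wells followed the Col6a1 counts of fibroblast wells in the same row or column with a Spearman correlation of 0.685, where the median mural well had 13 counts and the median neighbour sum was 5092. On the other 3 plates with mural wells this correlation of Col6a1 was 0.183 to 0.294. That of Col6a2 was 0.703 on the Acta2GFP plate and 0.064 to 0.285 on the others. The Acta2GFP plate was also highest for Col6a6 (0.488, with PdgfrbGFP next at 0.236) and Col14a1 (0.438, with PdgfrbGFP next at 0.307). The same held for Col16a1 (0.353, with PdgfrbGFP next at 0.005) and the marker Pdgfra (0.501, with Cspg4dsRED next at 0.360). The Acta2GFP plate was not apart for Col6a3 (0.205, against 0.214 for PdgfrbGFP and 0.204 for Cspg4dsRED), Col8a1 (0.384, against 0.381 for PdgfrbGFP) or Col12a1 (0.197, against 0.338 for PdgfrbGFP), nor for the marker Col1a1 (0.496, against 0.532 for PdgfrbGFP). The fibroblast marker Dcn gave 0.653 on the Acta2GFP plate, 0.617 on that of PdgfrbGFP, 0.604 on that of Cspg4dsRED and 0.249 on that of C57BL6. These correlations were examined after the values had been seen. The part of these measures in the levels of mural cells was not tested.

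**Figure D3:**
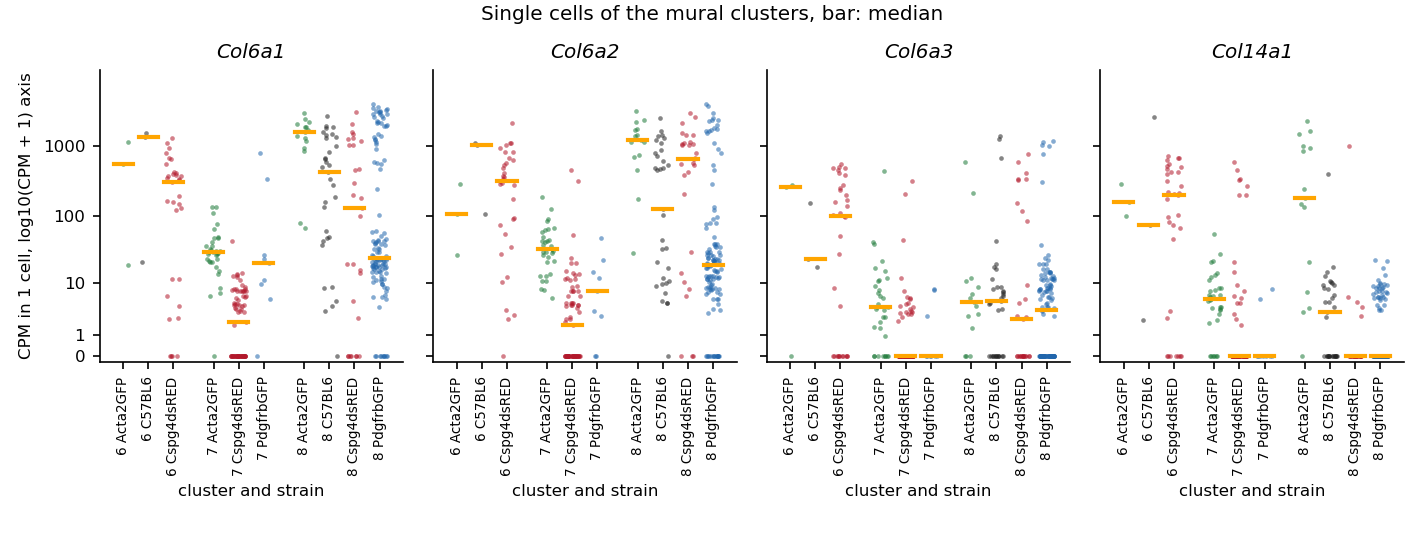
Level of Col6a1, Col6a2, Col6a3 and Col14a1 in single cells of clusters 6, 7 and 8, for strains with at least 3 cells in the cluster (CPM on a log10(CPM + 1) axis) by strain, with a bar at the median. Cells of cluster 8 spread from near 0 to 3936 CPM for Col6a1, with 44.4% at or above 100 CPM, while 5 cells of cluster 7 reach that level.

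Cluster 6 was compared with clusters 7 and 8 in 3 strains, and 0 of the 7 genes tested passed, where 0.0330% of 12117 genes did. The median log2 fold change of all genes was -0.32 there, and -0.17 with the size factors of DESeq2. Col14a1 had 199.2 CPM in Acta2GFP, 787 in C57BL6 and 260 in Cspg4dsRED in cluster 6, against 243.5, 23.6 and 28.3 CPM in clusters 7 and 8, so that it was lower in cluster 6 in Acta2GFP and higher in the other strains. Its log2 fold change was 2.11 ± 0.99 (SE, adjusted p = 0.891 in edgeR). The C57BL6 value rests on 3 cells, of which 1 had 2610 CPM and the others 2.28 and 74.1 CPM. Col6a3 averaged 145.9 ± 61.7 CPM there, against 48.3 ± 24.1 CPM over the other mural cells (SD, n = 3), without overlap although C57BL6 had 76.4 and 76.1 CPM on the 2 sides, and had a log2 fold change of 1.73 ± 1.06 (SE, adjusted p = 0.994 in edgeR). Col6a2 had similar means on both sides, 404 ± 271.7 and 414 ± 157.5 CPM, but the strains went opposite ways, since cluster 6 was lower in Acta2GFP (113.4 against 538 CPM) and higher in C57BL6 (651 against 466 CPM) and Cspg4dsRED (447 against 236.8 CPM).

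Cluster 1, the likely valve cells, was compared with the other fibroblasts, and none of the 8 genes tested passed in edgeR, where 1.33% of 13201 genes did. Col12a1, which is known from tendons and other tissue under tension, had its highest level there. It stood at 288.2 CPM in Acta2GFP, 188.5 in C57BL6, 78.3 in PdgfrbGFP and 6.17 in Cspg4dsRED in cluster 1, against 33.4, 11.8, 20.0 and 30.2 CPM in clusters 2 to 5. It was thus higher in 3 of 4 strains, and the exception, Cspg4dsRED, had 3 cells in cluster 1. The log2 fold change was 2.58 (SE 0.86) with an edgeR adjusted p of 0.266, while DESeq2 gave 0.0439 and edgeR on cells thinned to 50000 counts gave 0.0494. Of the 70 cells, 20 had at least 100 CPM of Col12a1 (28.6%, Wilson interval 19.3 to 40.1%), and 7 cells held 62.7% of its counts.

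The main collagen VI chains were at lower values in cluster 1. Col6a2 stood at 829 CPM in Acta2GFP, 563 in C57BL6, 853 in Cspg4dsRED and 398 in PdgfrbGFP, against 1600, 972, 1359 and 1010 CPM in clusters 2 to 5, without overlap. Its log2 fold change was -0.92 ± 0.27 (SE, adjusted p = 0.169 in edgeR). Col6a3 averaged 187.4 ± 65.7 CPM, against 391 ± 121.002 CPM over the other fibroblasts, and was lower in 4 of 4 strains with a log2 fold change of -1.04 ± 0.34 (SE, adjusted p = 0.261 in edgeR). The log2 fold changes of Col8a1, Col14a1, Col6a6, Col6a1 and Col16a1 were -1.49, -1.11, -0.83, -0.52 and 0.16, and their edgeR adjusted p-values were 0.506 or higher.

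Clusters 2 to 5, the bulk of the fibroblasts, were each compared with the other clusters of that set. In edgeR 0% of genes passed in each of these 4 comparisons (13870, 14803, 14104 and 16214 genes tested for clusters 2, 3, 4 and 5), so no gene of the collagen group did either. At an unadjusted p under 0.05 there were 641, 895, 670 and 630 genes, and DESeq2 called 1.22%, 2.61%, 1.29% and 0.789% of the genes. The comparisons share clusters, and their values are given side by side.

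Cluster 2 had the highest mean of Col6a3, although in PdgfrbGFP cluster 3 was higher (672 against 441 CPM). The sums of cluster 2 were 504 CPM in Acta2GFP, 745 in C57BL6, 805 in Cspg4dsRED and 441 in PdgfrbGFP, against 236.7, 268.9, 379 and 214.2 CPM in the sums of clusters 3 to 5. These did not overlap, and the log2 fold change within a strain lay between 1.04 and 1.47 (of CPM + 1), with a fitted value of 1.21 ± 0.25 (SE, adjusted p = 0.218 in edgeR). DESeq2 gave an adjusted p of 0.00987, and edgeR with the plate as the unit gave 0.0452. In 4 of 4 strains Col6a1 and Col6a2 were higher there too, by 0.53 ± 0.19 and 0.66 ± 0.21 on the log2 scale (SE), with edgeR adjusted p-values of 0.837 and 0.685. Col14a1 was lower there in 4 of 4 strains, with a log2 fold change of -1.09 ± 0.35 (SE, adjusted p = 0.722 in edgeR).

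Cluster 4 had the opposite order of Col14a1 and Col6a3. Col14a1 stood at 293 CPM in Acta2GFP, 473 in C57BL6, 381 in Cspg4dsRED and 278.2 in PdgfrbGFP, against 185.5, 209.3, 170.4 and 100.5 CPM in clusters 2, 3 and 5. The log2 fold change was 1.11 (SE 0.26), the strains did not overlap, and the adjusted p was 0.299 in edgeR and 0.0132 in DESeq2. Col12a1 had 78.96, 20.1, 60.8 and 43.3 CPM in the same order of strains, against 2.40, 8.51, 0.804 and 9.89 CPM, again without overlap. Its log2 fold change was 3.19 (SE 0.87) with an adjusted p of 0.437 in edgeR and 0.00409 in DESeq2. The Col12a1 level of cluster 4 came from few cells, since 16 cells (6.87%, Wilson interval 4.27 to 10.9%) had at least 100 CPM and 23 cells held 98.4% of the counts. Col6a3 was lower in cluster 4 in 4 of 4 strains with a log2 fold change of -1.04 ± 0.39 (SE, adjusted p = 0.901 in edgeR).

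Col8a1 set clusters 2 and 4 beside clusters 1, 3 and 5. It averaged 588 ± 164.6 CPM over the strains of cluster 4 and 468 ± 153.8 CPM over those of cluster 2 (SD, n = 4), against 162.9 ± 121.5 in cluster 1, 154.5 ± 70.3 in cluster 5 and 138.9 ± 110.5 in cluster 3, and clusters 2 and 1 were neighbours without overlap. In cluster 3 its log2 fold change was -1.59 ± 0.64 (SE, adjusted p = 0.692 in edgeR), lower in 3 of 3 strains, and in cluster 5 it was -1.31 ± 0.44 (SE, adjusted p = 1.00 in edgeR), lower in 2 of 2. Col16a1 had no clear order, with means from 15.9 to 72.5 CPM and overlap between all neighbours.

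Col12a1 had a count in 55.3% of the 94 Acta2GFP cells of clusters 2 to 5, in 11.4% of the 525 C57BL6 cells, in 34.8% of the 23 Cspg4dsRED cells and in 11.2% of the PdgfrbGFP cells. At 50000 counts per cell these shares were 12.8%, 4.76%, 13.04% and 5.61%. In all of clusters 2 to 5, counts of Col6a1, Col6a2 and Col6a3 were found together in 695 of 856 cells (81.2%, Wilson interval 78.4 to 83.7%), and 3 cells had none of them. The 3 chains were found together in 39 cells of cluster 7 (33.1%, 25.2 to 41.95%), in which 22 cells had none. Col6a6 had a count in 33.3% of the cells of clusters 2 to 5 (30.2 to 36.5%).

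The balance of the 3 main chains was set out per kilobase of transcript. In cluster 2 Col6a1 made up 42.6 ± 3.08%, Col6a2 48.97 ± 2.40% and Col6a3 8.42 ± 2.72% of their sum (SD, n = 4). The mean share of Col6a3 lay between 4.49% in cluster 4 and 9.42% in cluster 3 among fibroblasts. In cluster 8 it was 0.799% in Acta2GFP, 3.09% in C57BL6, 3.26% in Cspg4dsRED and 2.68% in PdgfrbGFP, a mean of 2.46 ± 1.13%, and it overlapped the strains of cluster 4, which ran from 2.04 to 7.39%. The ratio of Col6a2 to Col6a1 in cluster 2 was 1.16 ± 0.13, and 0.586 when all annotated exons were taken as the length, so the order of these 2 chains depends on the length used.

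**Figure D4:**
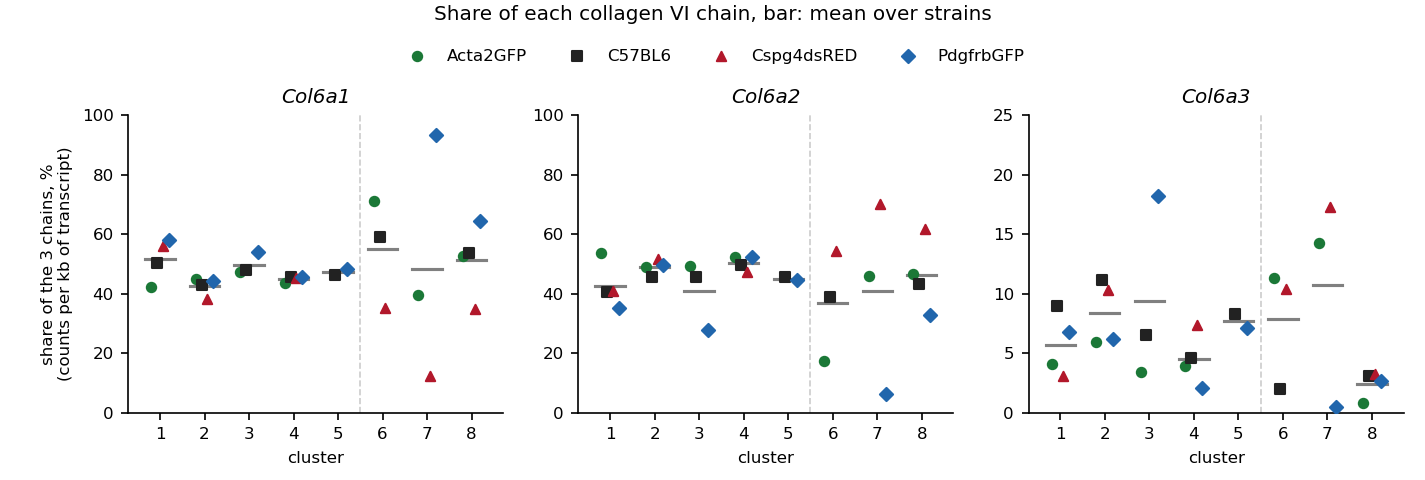
Share of Col6a1, Col6a2 and Col6a3 in the sum of the 3 chains, in percent of counts per kilobase of transcript, for clusters 1 to 8 with 1 point per strain and a bar at the mean. Col6a3 averages 4.49 to 9.42% in the fibroblast clusters and 2.46% in cluster 8, and cluster 7, where all 3 chains are scarce, spreads widest.

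Genes that act with these collagens were taken from 3 lists. Of 10 other chains of the same families, 3 could be tested in fibroblasts against mural cells and 0 passed, with a median log2 fold change of 1.40 beside -0.02 for all genes. Of 14 receptors and matrix partners 13 were tested, 2 were higher in fibroblasts and 1 was lower, where 5.93% of all genes passed, and the median was 0.72. Those higher were the proteoglycans Dcn (log2 fold change 3.06, edgeR adjusted p = 0.00476), one of the fibroblast markers, and Bgn (1.30, 0.0162). Itga1, the integrin chain that pairs with Itgb1 to bind collagen, was lower, with a mean of 24.1 ± 11.5 CPM for fibroblasts, a mean of 257.4 ± 91.4 CPM for mural cells (SD, n = 4) and a log2 fold change of -3.47 ± 0.43 (SE, adjusted p = 0.00139 in edgeR). All 18 folding and secretion genes were tested, with a median of 0.51. The 2 that passed were both higher in fibroblasts, P3h4 (1.24, edgeR adjusted p = 0.0395), a partner in collagen hydroxylation, and P4hb (0.96, 0.0429), a subunit of prolyl hydroxylase. In cluster 1 against clusters 2 to 5, where 1.33% of all genes passed, 1 of 13 partners and 1 of 18 folding genes did. Tnxb, a matrix glycoprotein that binds fibrillar collagen, was lower (-2.97, edgeR adjusted p = 0.0469) and the prolyl hydroxylase P3h2 was higher (3.16, 0.0302). No other listed gene passed in edgeR in any of the other 6 comparisons. Col8a2, the usual partner of Col8a1, had a mean of 56.4 ± 48.7 CPM in cluster 1, against 8.84 ± 7.17 CPM over the rest of the fibroblasts (SD, n = 4), and was higher in 4 of 4 strains with an edgeR adjusted p of 0.248.

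The genes most alike in pattern were found by Pearson's r of log2(CPM + 1) over the 27 sums, which share strains and depth, among genes with a mean of at least 10 CPM. Col6a1 was closest to Cp (r = 0.89), Anxa5 (0.86) and Col6a2 (0.86). Col6a2 was closest to Slc43a3 (0.91), Matn2 (0.91) and Col3a1 (0.89), and Col6a3 to Lrp1 (0.91), Pdia6 (0.86) and Npdc1 (0.86). Col6a6 followed Vsir (0.85), Bmper (0.82) and Cand2 (0.81), and Col8a1 followed Col5a1 (0.87), Srpx2 (0.87) and Sntb2 (0.84). For the fibril-associated collagens these were Angptl7 (0.85), Clip4 (0.82) and Anxa8 (0.82) for Col12a1, Adamts2 (0.92), Fmo2 (0.84) and Aebp1 (0.84) for Col14a1 and Dgcr2 (0.83), Ntn1 (0.73) and Dclk1 (0.73) for Col16a1. Those of Col6a5, Lrrc3 (0.66), Tent5b (0.62) and Prrx1 (0.61), rest on 5 sums in which Col6a5 had any count. Among the genes themselves, r was 0.81 between Col6a2 and Col6a3, 0.69 between Col6a1 and Col6a3, and 0.13 between Col6a1 and Col12a1.

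On GRCm38 the genes lie at 10:76708792-76726168 (Col6a1), 10:76595762-76623630 (Col6a2), 1:90765923-90843971 (Col6a3), 9:105856078-105960643 (Col6a5), 9:105687809-105828160 (Col6a6), 16:57624258-57754737 (Col8a1), 9:79598991-79718831 (Col12a1), 15:55307750-55520803 (Col14a1) and 4:130047840-130099283 (Col16a1). Col6a1 and Col6a2 are neighbours on the minus strand, as are Col6a5 and Col6a6. Counts are over whole genes, so that the upstream stretches shown were not themselves measured.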

How the data were processed

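The deposited values are counts of reads, 1 column for each cell and unnormalised, which the authors made from single 50-base reads with Trim Galore, TopHat2 on GRCm38 and featureCounts; the annotation release and strand setting are not given in the sources used here. The authors also removed shallow cells, cells with many genes as doublets, and cells with endothelial or immune signatures, and clustered the rest with pagoda2. No cell was left out here and no doublet caller was run. Spike-ins (92 features, 1.82% of counts) stayed out of library sizes.

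For each of 8 comparisons, the cells of a strain on either side were added up (at least 3 cells on both sides). Labels name no animal, and the strain was the replicate; p-values measure the spread between strains, each of which had its own sort. Sums were tested with the quasi-likelihood test of edgeR 4.0.16 (TMM, filterByExpr minimum count 10, Benjamini-Hochberg over all genes, threshold 0.05). The same fit was run on simulated sums of fibroblasts and mural cells, which had the same dispersion for every gene and no strain effect. The SE is the absolute log2 fold change over the root of F. Alternatives were DESeq2 1.42.0, its size factors, no filter, cells thinned to 50000 counts, plates as units, the strain as a block, each strain left out, and leaving out clusters 1 and 6. The deviations of both sides of a strain correlated at 0.118 to 0.218 for fibroblasts and mural cells and at 0.037 to 0.221 elsewhere. Both sides of a reporter strain came from 1 plate, whereas C57BL6 mural cells were on 1 plate and its fibroblasts on 3, and the part of the plate was not tested. Symbols, coordinates and transcript lengths came from GENCODE M21, matched by identifier for 46005 of 46517 genes.

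The genes, the lists and the tests were chosen with earlier results of these data known. Named were all 9 genes, at most 3 passing genes per list and comparison, and the 3 genes most alike to each. Col8a2, plate neighbours and 2 alternatives (without the C57BL6 cells of cluster 6, without 3 mural cells with at least 100 CPM of Pdgfra) were chosen after the values were seen.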

Additional observations from a re-analysis of the deposited data

Results flagged for a closer look

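In 9 of the 35 groups of 4 strains tested, 1 strain lay far from the other 3 for the level of a gene in a cluster, by the ratio of its gap to the whole range. Chance flags about 1 in 20 such groups, and 3 of the 9 were groups in which the other 3 strains were at 0.

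Acta2GFP was the strain apart in 5 groups. In cluster 8 its Col14a1 level was 667 CPM against 2.21 to 24.1 CPM in the others, from 15 cells with 4469 counts. Its Col12a1 level there was 3.44 CPM against 0.15 to 0.647 CPM, from 23 counts. Col6a5 stood at 14.5 CPM in cluster 8, at 1.17 CPM in cluster 4 and at 0.0607 CPM in cluster 2, with 97, 18 and 1 counts, where the other strains had none.

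Cspg4dsRED was apart in 3 groups. Its Col6a1 level in cluster 1 was 1211 CPM against 679 to 721 CPM and came from 3 cells. Its Col16a1 level was 160 CPM in cluster 2, with 8 cells and the others at 21.4 to 40.8 CPM, and 82.9 CPM in cluster 4, with 13 cells and the others at 30.8 to 36.6 CPM. PdgfrbGFP was apart for Col12a1 in cluster 2, with 28.6 CPM against 0.984 to 3.94 CPM, from 49 cells with 439 counts. Each strain also had its own sort, and its part in these levels was not tested.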

How the results depend on the processing

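Of 600 refitted log2 fold changes of single genes, 562 kept their direction and side of the threshold, 10 gained a call, 11 lost one and 17 changed sign, none of these 17 with a call. In fibroblasts against mural cells the number of genes of the group that passed was 4, with 1 to 3 when a strain was left out and 5 with DESeq2. The other gains were 1 in cluster 1 with DESeq2 and with thinned cells (Col12a1), 1 in cluster 2 with DESeq2 and with plates as units (Col6a3), 2 in cluster 4 with DESeq2 (Col12a1, Col14a1), and 2 in cluster 8 against cluster 7 without the filter and with the strain as replicate block (Col6a1 beside Col6a2); without a strain the last count ran from 0 to 1. With the block Col6a6 lost its call and Col12a1 gained one in fibroblasts against mural cells, and besides Col6a1 no other call of these genes changed with it.

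Sign changes were few, and each range that follows is over the fits without 1 strain. Col16a1 changed sign in cluster 1 without Acta2GFP (-0.01 to 0.30) and in cluster 2 without Cspg4dsRED (-0.10 to 0.87). In cluster 3 they were Col6a1 with thinned cells (-0.25) and without Acta2GFP (-0.10 to 0.18), Col6a3 with thinned cells (-0.07), Col6a6 with the block (-0.33), and, without PdgfrbGFP, Col6a2 (-0.67 to 0.01), Col6a3 (-0.49 to 0.75) and Col6a6 (-0.97 to 1.32). In cluster 4 it was Col16a1 with thinned cells (0.03). In cluster 6 it was Col6a2 with DESeq2 (0.29), its size factors (0.29) and without Acta2GFP (-0.40 to 0.58). In cluster 8 against cluster 7 they were Col14a1 without Acta2GFP (-1.77 to 6.33) and Col16a1 with thinned cells (-0.65), with the block (-1.39) and without Acta2GFP (-3.71 to 2.40). The cause was not tested.

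Over all genes, 5.93% passed in fibroblasts against mural cells, with 12.7% in DESeq2, 2.58% without the filter and 2.66% to 3.91% without a strain. In cluster 1 it was 1.33%, with 5.22% in DESeq2, 0.742% with the block, 0.530% without the filter and 0.201% to 0.748% without a strain. From 0%, cluster 2 went to 1.22% (DESeq2), 0.00736% (no filter) and 0.176% (plates), cluster 3 to 2.61%, 0.0705% and 0.135%, with 0.0492% in thinned cells and 0.236% with the block, cluster 4 to 1.29%, 0.0184% and 0.159%, with 0.192% in thinned cells and 0% to 0.00657% without a strain, and cluster 5 to 0.789%, 0.119% and 0.00672%. Cluster 6 went from 0.0330% to 2.81% (DESeq2), 0.418% (no filter), 0.108% (thinned cells), 0.883% (block) and 0% to 0.495% without a strain. Cluster 8 against cluster 7 went from 0.194% to 3.202% (DESeq2), 0.855% (no filter), 0.379% (size factors), 0.691% (block) and 0% to 0.987% without a strain. With the size factors of DESeq2 the median log2 fold change of all genes moved from -0.13 to 0.04 in cluster 3, from -0.32 to -0.17 in cluster 6 and from 0.18 to 0.04 in cluster 8 against cluster 7. Genes below about 10 CPM rest on few cells, and 2 to 4 strains limit every test.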
